A study of Bos taurus with 9 samples.

Results

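Granulosa cells of the dominant follicle were compared between cows at 60 days and at 120 days after calving. The comparison rests on 3 of the 9 arrays of the study, those titled for granulosa cells at 60 days, on which red (Cy5) 60-day RNA and green (Cy3) 120-day RNA were hybridised together. The other 6 arrays carried 30-day or 90-day RNA in Cy5, 3 arrays each, also against 120-day RNA in Cy3. All animals were Holstein-Friesian dairy cows, and the days after calving are the difference that the labels name between the groups. Cells were aspirated from dominant (preovulatory) follicles by ovum pick-up 42 hours after prostaglandin, which ends the luteal phase. They were spun down and washed but not sorted, so other cells of the aspirate were not removed, and their RNA was amplified in more than one round before labelling. The labels give 3 biological replicates per day. They do not say whether animals were pooled for a replicate. No array exchanged the dyes, so a dye effect of a probe and the difference between 60 and 120 days cannot be told apart within a ratio. The 30-day and 90-day ratios have the same dyes on the same sides and are given beside the 60-day ratios.

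The granulosa layer surrounds the oocyte and lines the follicle inside its basement membrane. Follicle-stimulating hormone drives its growth and its aromatase, which makes oestradiol from androgens of the neighbouring theca. As a follicle becomes dominant, granulosa cells gain the receptor for luteinising hormone, while inhibin from the same cells holds back follicle-stimulating hormone at the pituitary. Anti-Müllerian hormone (AMH), another product of granulosa cells, is highest in small growing follicles and declines towards ovulation. High-yielding dairy cows are commonly in energy deficit in the first weeks after calving.

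A level below is the normalised signal of a channel, in arbitrary units, and a ratio is the log2 of 60-day over 120-day signal, so a positive ratio means higher at 60 days. The error is the SE of a limma model over all 9 arrays, unless an SD of the 3 arrays is named, and n is 3 arrays. Adjusted p-values are limma's, with Benjamini-Hochberg adjustment over all 38823 probes tested, and a gene rose or fell where its adjusted p was under 0.05. Of 14281 genes 1876 passed, which is 13.1%. At 60 days 869 genes (6.09%) rose and 1007 (7.05%) fell, 205 and 301 of them at least 2-fold. The median ratio of all genes was -0.05. Without 60 days replicate 1, 2 or 3, 133, 975 and 70 genes passed, and 253 passed with median pixel signals. Of 75 genes that passed and were named by a rule, 17, 35 and 13 still passed without replicate 1, 2 or 3, and 12 passed without any one of them: VCAN, GNA11 and TMEM161A, which rose, and CFD, COX4, HERC6, IFIH1, SAT1, SDHC, SMS, SUCLG1 and TMSB4X, which fell.

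**Figure D1:**
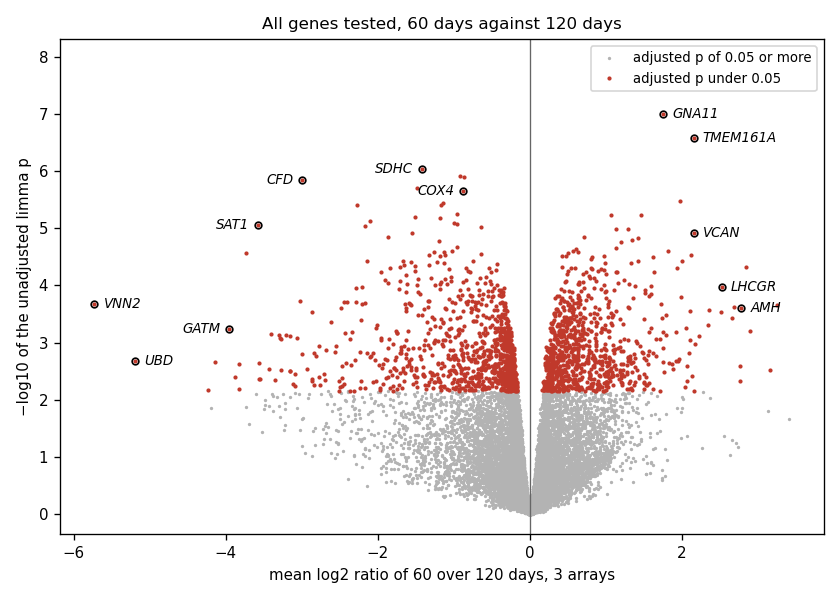
Mean log2 ratio of 60 over 120 days (x axis, 3 arrays) against the −log10 of the unadjusted limma p (y axis) for 14281 genes, 1 point per gene, with red points for those with an adjusted p under 0.05. The genes with the lowest p, GNA11 and TMEM161A, lie on the right, and the largest falls, VNN2 and UBD, on the far left.

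Granulosa cell markers were read on each array, though a ratio between days does not by itself show the cell type. Of 15 measured granulosa cell markers 13 had a ratio above 0, beside 6342 of all 14281 genes. Of the 15, 2 rose and 0 fell, beside 6.09% and 7.05% of all genes. The rises numbered 0, 2 and 0 without 60 days replicate 1, 2 or 3. The median of the list was 0.64, 1.11 and 1.01 on replicates 1, 2 and 3 of 60 days. Of these markers 13 were above background on 3 of 3 arrays in both channels. Inhibin alpha (INHA), among the brightest, had 40500, 44000 and 38400 in the 60-day channel and 6260, 4370 and 8960 in the 120-day channel. AMHR2, the receptor of AMH, was dimmer, at 441, 283 and 459 in the 60-day channel and 223, 192 and 155 in the 120-day channel. FOXL2, the transcription factor that maintains granulosa identity, was close to background, above it on 2 of 3 arrays at 60 days and 0 of 3 at 120 days. Its 60-day signals were 207, 213 and 189. Some genes below had 60-day signals near that level, such as HERC6, and on replicate 1 GNLY, S100A9, CFD, UBD and NLRC5. The size of their ratios is therefore less certain. On the other days the granulosa median was 0.39, -2.05 and -2.73 at 30 days and -1.47, 0.43 and 0.24 at 90 days. Replicates 2 and 3 of 30 days and replicate 1 of 90 days thus stood apart, and their macrophage marker medians were 2.48, 1.91 and 2.21, against -0.98, -0.09 and -0.42 on the 60-day arrays. Correlations between the ratios of the 3 arrays, over all probes tested, were 0.454, 0.518 and 0.695. By their Cy3 signals, replicates 1 and 2 of 90 days grouped with replicates 2 and 1 of the other days, and whether those numbers were exchanged is not known. The columns of the authors' value table did not match the arrays they are named for, and some matched an array of another day, so each comparison rests on the array files being as labelled. In bulk RNA, fewer cells of a type and less RNA per cell cannot be told apart, which holds for each result below.

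AMH and the receptor for luteinising hormone stood higher at 60 than at 120 days on every array. AMH had signals of 2660, 1910 and 1700 in the 60-day channel, against 315, 251 and 339 in the 120-day channel. The ratios were 3.08, 2.93 and 2.33 at 60 days (2.78 ± 0.42, adjusted p = 0.0113), and the channels did not overlap. LHCGR, the receptor for luteinising hormone, had signals of 1210, 683 and 1410 in the 60-day channel and 177, 161 and 217 in the 120-day channel, where it was above background on 2 of 3 arrays. Its ratios of 2.78, 2.08 and 2.70 averaged 2.52 ± 0.34 (adjusted p = 0.00947), and both of its probes had a positive mean, 2.52 and 1.25. The mean ratios of 30 and 90 days, against the same 120-day RNA, were -0.01 and 0.43 for AMH and 0.64 and 0.43 for LHCGR. Both passed without 60 days replicate 2 but not without replicate 1 (adjusted p = 0.0733 for AMH and 0.0622 for LHCGR) or replicate 3 (0.0587 and 0.0613).

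The receptors of AMH and of oestradiol were less bright. AMHR2, the receptor specific to AMH, had ratios of 0.98, 0.56 and 1.56 at 60 days (1.04 ± 0.19, adjusted p = 0.0175). ESR2, oestrogen receptor beta, had 0.36, 0.71 and 0.51 (0.53 ± 0.07, adjusted p = 0.0105). Both were above background in the 120-day channel on 2 of 3 arrays. At 30 and 90 days AMHR2 averaged -0.02 and -0.07, and ESR2 averaged 0.03 and 0.17. All 3 ratios of 60 days lay above all 6 of the other days for AMH, LHCGR, AMHR2 and ESR2. The same held for FOXO1, INHBA and INHA, described below, for INHA by 0.02. That was so for 420 of all 14281 genes (2.94%), and 3 of the 6 are the arrays of low granulosa and high macrophage medians above.

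The inhibin and activin subunits had ratios as large as that of AMH but did not pass. INHA, the subunit that makes a dimer an inhibin, had ratios of 2.69, 3.33 and 2.10 at 60 days (2.71 ± 1.20, adjusted p = 0.167). INHBA, a beta subunit shared by inhibin and activin, had 2.54, 2.29 and 2.83 (2.55 ± 1.05, adjusted p = 0.142), with signals of 40600, 43600 and 38300 at 60 days against 6960, 8900 and 5400 at 120 days. INHBB, the other beta subunit, had 2.59, 2.29 and 3.00 (2.63 ± 1.36, adjusted p = 0.227). Follistatin (FST), which binds and neutralises activin, had 3.47, 2.50 and 2.22 (2.73 ± 1.27, adjusted p = 0.185). The 4 genes were high on all 3 arrays of 60 days, with an SD of 0.27 to 0.66, and their SE reflects the spread on the other days, which the model shares. With only the 60-day arrays in the limma fit, the adjusted p was 0.0563 for INHA and 0.0557 for INHBA. In that fit 0 genes passed, and the adjusted p of AMH and of LHCGR was 0.0557 as well. At 30 days INHA was at 1.77, -3.37 and -3.69, and at 90 days at -2.82, 2.08 and 0.24. Of the 14 measured genes of AMH, inhibin and activin signalling 2 rose (AMH and AMHR2) and 0 fell, beside 6.09% and 7.05% of all genes. Of the 14, 10 were above 0, beside 6342 of all 14281 genes, with a median of 0.34. The rises numbered 0, 2 and 0 without 60 days replicate 1, 2 or 3.

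Genes of growth and transcription in granulosa cells moved singly. CCND2, the D-type cyclin through which follicle-stimulating hormone drives granulosa cell division, had ratios of 1.01, 1.92 and 0.97 at 60 days (1.30 ± 0.28, adjusted p = 0.0268). FOXO1, a transcription factor of growing follicles, had 1.77, 1.94 and 1.14 (1.61 ± 0.43, adjusted p = 0.0471), against means of -0.31 at 30 and 0.03 at 90 days. Of 29 measured granulosa transcription factors 4 rose (ESR2, FOXO1, TCF21 and CREB3L2) and 1 fell (CEBPA, not above background at 60 days), beside 6.09% and 7.05% of all genes, with a median of -0.02. The rises numbered 2, 3 and 0 without 60 days replicate 1, 2 or 3. Of 34 genes of gonadotrophin receptors and cyclic AMP signalling 1 rose (LHCGR) and 1 fell (RAPGEF3, not above background at 60 days), with a median of -0.03.

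Steroid genes varied between the 3 arrays of 60 days. CYP19A1, the aromatase, was bright at 18400, 25300 and 9760 in the 60-day channel against 11800, 4290 and 5320 in the 120-day channel, with ratios of 0.64, 2.56 and 0.87 (adjusted p = 0.447). HSD3B1, which makes progesterone from pregnenolone, had -0.67, 3.90 and 2.09 (adjusted p = 0.192), and the signs differed between arrays. CYP11A1, which starts steroid synthesis from cholesterol, had -0.15, 1.46 and 1.09 (adjusted p = 0.468). STAR, which carries cholesterol into the mitochondrion and is induced by the luteinising hormone surge, had signals of 652, 2400 and 9610 at 60 days against 10100, 4930 and 10700 at 120 days. Its ratios of -3.96, -1.04 and -0.15 were all below 0 and spread widely (adjusted p = 0.139). FSHR, the receptor for follicle-stimulating hormone, had 0.60, 0.37 and 1.95 (adjusted p = 0.224). Of 23 measured genes of steroid synthesis 0 rose and 1 fell (4.35%), beside 6.09% and 7.05% of all genes, with a median of 0.08. That gene was HSD17B11, a hydroxysteroid dehydrogenase, at -2.01, and its other probe averaged 0.22.

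**Figure D2:**
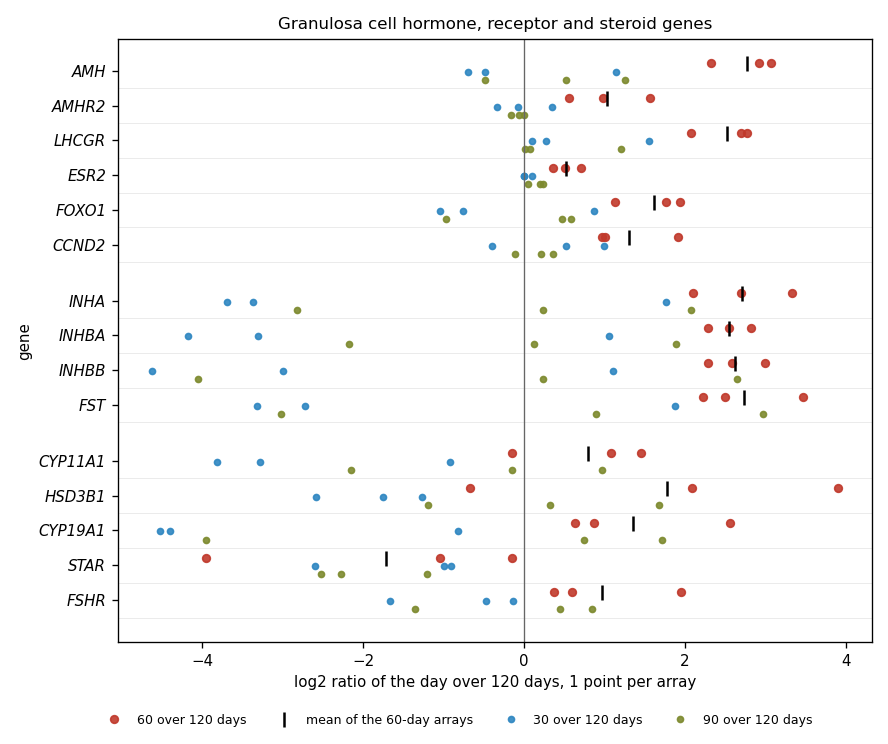
Log2 ratios over 120 days on each array (x axis) for 15 genes, 1 point per array, with 60-day arrays in red, 30-day arrays in blue and 90-day arrays in olive; black bars are the means of 60 days. AMH, LHCGR, AMHR2, ESR2, FOXO1, INHA and INHBA have all red points to the right of the others, INHA by 0.02. The inhibin and activin genes are high on all 3 red points and spread from -4.62 to 2.97 on the other days.

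Genes of the basement membrane and of the matrix between granulosa cells were among the rises at 60 days. VCAN, versican, a large chondroitin sulphate proteoglycan of the follicle wall and fluid, had signals of 1510, 1120 and 825 in the 60-day channel, against 328, 185 and 257 in the 120-day channel. Its ratios were 2.20, 2.60 and 1.68 (2.16 ± 0.21, adjusted p = 0.00644). COL4A1, a type IV collagen chain of basement membranes, had 6980, 5900 and 10200 at 60 days against 1980, 1930 and 1480 at 120 days, with ratios of 1.82, 1.61 and 2.78 (2.07 ± 0.52, adjusted p = 0.0407). The channels did not overlap for either gene. COL4A2, its partner chain, was above background on 3 of 3 arrays at 60 days and 0 of 3 at 120 days. Its ratio averaged 2.00 ± 0.23, an estimate of 3.99-fold higher (adjusted p = 0.00803). COL4A4, a type IV chain of another heterotrimer, had 0.91, 0.80 and 0.69 (0.80 ± 0.09, adjusted p = 0.00803), with 120-day spots above background on 1 of 3 arrays.

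Other matrix genes rose as well. LAMB2, a laminin beta chain, had ratios of 2.63, 2.01 and 1.67 (2.10 ± 0.39, adjusted p = 0.0187), and COL6A2, of type VI collagen, 1.01, 1.16 and 0.45 (0.87 ± 0.17, adjusted p = 0.0229). LTBP1, which stores latent TGF-beta in the matrix, had signals of 2310, 2440 and 4600 at 60 days against 481, 536 and 400 at 120 days (adjusted p = 0.0132). CHPF, which helps build chondroitin chains, had 35700, 35700 and 26300 at 60 days against 5210, 4440 and 4620 at 120 days (adjusted p = 0.0401). TIMP1, an inhibitor of matrix metalloproteinases, went the other way, with 361, 347 and 607 at 60 days against 1870, 4510 and 14800 at 120 days (ratio -3.56 ± 0.78, adjusted p = 0.0282, both probes lower). Of 35 measured genes of extracellular matrix and basement membrane 7 rose and 0 fell, against 6.09% of all genes rising. The median of that list was 0.09, so the rises stood in a list that was otherwise not shifted. COL4A1 averaged -0.81 at 30 and -1.10 at 90 days, and VCAN 0.71 and 0.24. The rises in the matrix list numbered 2, 4 and 3 without 60 days replicate 1, 2 or 3. COL4A1 passed in 0 of these 3 fits (adjusted p = 0.139, 0.0846 and 0.185), as did LAMB2, COL6A2, CHPF and TIMP1. VCAN passed in 3, COL4A2 and COL4A4 in 2 and LTBP1 in 1. LTBP1 and CHPF belong to other lists. Of 33 measured genes of BMP and TGF-beta signalling 2 rose and 2 fell, or 6.06% each way, close to the 6.09% and 7.05% of all genes. Of 35 measured genes of proteoglycan and glycosaminoglycan synthesis 4 rose (11.4%) and 2 fell (5.71%).

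Genes of mitosis were higher as a group. Of 45 measured genes of mitosis and chromosome segregation 15 rose, 1 fell (PLK1, a mitotic kinase named after its value was seen, at -0.44) and 41 had a ratio above 0, against 6.09% and 7.05% of all genes rising and falling. The median was 0.62 over the list, and 0.27, 0.79 and 0.72 on replicates 1, 2 and 3. PRC1, which bundles microtubules of the central spindle, had signals of 14700, 16600 and 8810 at 60 days against 4780, 5000 and 2000 at 120 days, with ratios of 1.62, 1.73 and 2.14 (1.83 ± 0.40, adjusted p = 0.0279). ASPM, of the spindle poles, had ratios of 1.64, 1.92 and 1.14 (1.56 ± 0.40, adjusted p = 0.0419). KIF20A, a kinesin of cytokinesis, had 1.62, 0.94 and 2.10 (1.55 ± 0.34, adjusted p = 0.0284). The channels did not overlap for PRC1, ASPM or KIF20A.

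CCNB1, the cyclin of entry into mitosis, had ratios of 0.79, 1.72 and 1.47 (1.33 ± 0.29, adjusted p = 0.0281). UBE2C, which marks mitotic cyclins for destruction, had 0.59, 1.24 and 1.54 (1.12 ± 0.26, adjusted p = 0.0317), and CENPF, of the kinetochore, had 1.15, 1.01 and 2.27 (adjusted p = 0.0234). The same 45 genes had a median of 0.37 at 30 days and 0.14 at 90 days against the same 120-day RNA. Of 44 measured genes of DNA replication 2 rose (TK1 and GINS4) and 2 fell (MCM2 and POLE), or 4.55% each way, beside 6.09% and 7.05% of all genes, with a median of 0.11. Both rises were lost without any one replicate of 60 days. MCM2, a subunit of the replicative helicase, had ratios of -1.10, -1.25 and -1.01 by 1 of its 3 probes, while another probe averaged 0.62. POLE was not above background at 60 days. Without 60 days replicate 1, 2 or 3, the number of mitosis genes that rose was 1, 7 and 0, and it was 0 without the 3 arrays of other days with the highest macrophage marker medians. With median centring in place of loess 5 mitosis genes rose, with a median of 0.75.

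**Figure D3:**
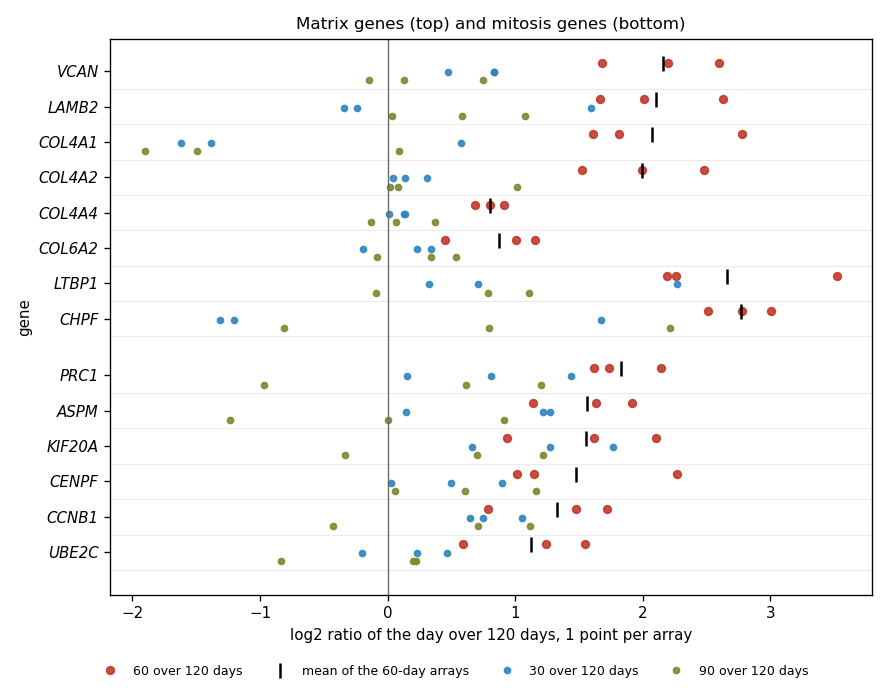
Log2 ratios over 120 days on each array (x axis) for 8 matrix genes and 6 mitosis genes, 1 point per array, with 60-day arrays in red, 30-day arrays in blue, 90-day arrays in olive and black bars at the means of 60 days. All 3 red points lie above 0 for each gene, and those of COL4A1 lie between 1.61 and 2.78, above all blue and olive points.

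Among genes of the TCA cycle, 3 that handle succinate fell. SDHC, a membrane anchor of succinate dehydrogenase, had signals of 1300, 2000 and 1180 at 60 days against 3900, 4960 and 2970 at 120 days, with ratios of -1.59, -1.31 and -1.34 (-1.41 ± 0.09, adjusted p = 0.00484, both probes lower). SUCLG1, of the succinyl-CoA ligase that forms succinate, had -1.64, -1.01 and -1.14 (-1.26 ± 0.14, adjusted p = 0.00788). SDHD, the other anchor subunit, had -0.59, -1.30 and -1.28 (-1.06 ± 0.15, adjusted p = 0.0107), while its dimmer probe averaged 0.08. Of 27 measured genes of the TCA cycle these 3 fell, 1 rose (DLAT, of the pyruvate dehydrogenase complex, at 0.75) and 23 did not pass, with a median of 0.06. The share that fell was 11.1%, beside 7.05% of all genes. SUCLG2, another subunit of the succinyl-CoA ligase, had ratios of 0.23, -0.02 and 0.37 (adjusted p = 0.649). SDHC and SUCLG1 averaged -1.24 and -1.42 at 30 days and -0.03 and -0.14 at 90 days.

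COX4, a subunit of cytochrome oxidase, had ratios of -0.83, -0.85 and -0.95 at 60 days, an SD of 0.06 (-0.88 ± 0.07, adjusted p = 0.00484). At 30 days it averaged -0.42 and at 90 days 0.30, and all 3 ratios of 60 days lay below the other 6. Of 70 measured respiratory chain genes 0 rose and 3 fell, or 4.29%, beside 7.05% of all genes falling, with a median of -0.16. Enzymes of polyamine and creatine metabolism were among the falls. SAT1, which acetylates polyamines for export, had 706, 1310 and 897 at 60 days against 6820, 11400 and 18000 at 120 days (adjusted p = 0.0063), and all 4 of its probes fell. SMS, the spermine synthase, had ratios of -1.51, -1.76 and -2.33 (-1.86 ± 0.18, adjusted p = 0.00709). GATM, the first enzyme of creatine synthesis, had 214, 281 and 471 at 60 days against 1930, 5940 and 9160 at 120 days (adjusted p = 0.0157). Of 29 measured genes of polyamine, creatine and one-carbon metabolism 2 rose and 6 fell, with a median of -0.27. The rises were MTR, the methionine synthase, at 0.61, and MTHFD2, of mitochondrial folate use, at 0.37, the second of them named after its value was seen. The rises numbered 0 each time and the falls 2, 3 and 3 without 60 days replicate 1, 2 or 3, and 6.09% and 7.05% of all genes rose and fell.

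SOD2, the mitochondrial superoxide dismutase, had ratios of -1.56, -1.95 and -2.35 (-1.95 ± 0.37, adjusted p = 0.0187). GPX4, which reduces lipid peroxides, had -2.40, -0.47 and -1.60 (-1.49 ± 0.36, adjusted p = 0.0369). GCLC, which catalyses the first step of glutathione synthesis, had 0.69, 1.11 and 0.54 (0.78 ± 0.16, adjusted p = 0.0225). Of 40 measured antioxidant and glutathione genes 1 rose (GCLC) and 4 fell, SOD2, GPX4, SOD3, which was not above background at 60 days, and TXN2, named after its value was seen. The shares were 2.5% and 10%, beside 6.09% and 7.05% of all genes. The list median was -0.35, but -0.05 with median centring in place of loess, and the falls numbered 0, 2 and 0 without 60 days replicate 1, 2 or 3. Of 63 measured cytosolic ribosomal protein genes 18 fell (28.6%) and 0 rose, beside 7.05% and 6.09% of all genes, with a median of -0.48. With median centring in place of loess, however, the median was 0.09, with 22 rising and 10 falling. The median was -0.38, -0.05 and -0.81 on the 3 arrays. Without 60 days replicate 1, 2 or 3 the falls numbered 0, 24 and 0, so no direction is given for this family.

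Genes of antigen presentation were lower at 60 than at 120 days. MHC class I molecules carry peptides to the cell surface for T cells, and class II molecules do so in antigen-presenting cells. Class I heavy chain probes fell, with BOLA at 1030, 2940 and 2930 in the 60-day channel, against 11200, 27600 and 12800 in the 120-day channel. Its ratios were -3.45, -3.23 and -2.12 (-2.93 ± 0.67, adjusted p = 0.0315). BOLA-NC1 had -2.72, -3.22 and -2.12 (-2.69 ± 0.67, adjusted p = 0.0393), and JSP.1 had -2.60, -2.79 and -2.10 (-2.50 ± 0.65, adjusted p = 0.0455). These class I genes are near-identical copies, so a probe may read more than one of them, and of the 3 BOLA probes 1 passed and another averaged -0.17. B2M, the light chain of class I, had ratios of -3.07, -1.51 and -1.68 (adjusted p = 0.0253) by 1 probe and a mean of 0.04 by the other.

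NLRC5, the factor that drives class I transcription, had signals of 210, 310 and 325 at 60 days against 1340, 1060 and 1520 at 120 days (ratio -2.23 ± 0.56, adjusted p = 0.0401). CD74, the invariant chain of class II, had 561, 986 and 587 at 60 days against 6000, 5500 and 7040 at 120 days (-3.16 ± 0.73, adjusted p = 0.0327). For both, every 60-day signal was below every 120-day signal. PSMB10, a subunit of the immunoproteasome, had ratios of -1.53, -1.40 and -1.55, an SD of 0.08 (-1.49 ± 0.34, adjusted p = 0.0324), and PSME1, of the proteasome activator, had -1.25, -0.93 and -1.85 (-1.34 ± 0.24, adjusted p = 0.0167). Of 27 measured genes of antigen presentation 9 fell, 0 rose and 24 were below 0, against 7.05% of all genes falling. The list median was -1.33, and -1.55, -1.12 and -1.27 on the 3 arrays, against 0.08 at 30 and 0.20 at 90 days. Without 60 days replicate 1, 2 or 3, 0 of the 27 passed, with medians between -1.44 and -1.23. With median centring in place of loess 1 of the 27 fell, with a median of -1.09.

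Interferon-stimulated genes were lower on all 3 arrays. Of 49 measured, 19 fell and 0 rose, beside 7.05% and 6.09% of all genes. A ratio below 0 was found for 43, beside 7939 of all 14281 genes. Their median was -0.73, and -0.57, -0.97 and -0.66 on replicates 1, 2 and 3. The list median was -0.23 at 30 days and -0.08 at 90 days. IFITM2, a membrane protein that blocks virus entry, had 1370, 2130 and 2430 at 60 days against 15200, 18200 and 17900 at 120 days, with ratios of -3.48, -3.09 and -2.88 (-3.15 ± 0.57, adjusted p = 0.0174). IFI16, a DNA sensor, had ratios of -2.82, -2.00 and -2.59 (-2.47 ± 0.55, adjusted p = 0.0295), against means of -0.10 at 30 and 0.16 at 90 days. IFIH1, a sensor of viral RNA, had 222, 251 and 300 at 60 days against 847, 1480 and 1200 at 120 days (adjusted p = 0.0063). HERC6, an interferon-induced ubiquitin ligase, had 200, 238 and 232 at 60 days against 671, 1160 and 1130 at 120 days (adjusted p = 0.0063). Those 60-day signals were near the level of FOXL2, which was close to background. For IFIH1 and HERC6 the channels did not overlap.

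UBD, a ubiquitin-like protein induced by interferon, varied widely between arrays. Its signals were 207, 1440 and 896 at 60 days against 34900, 10600 and 35000 at 120 days, with ratios of -7.40, -2.89 and -5.29 (-5.19 ± 1.12, adjusted p = 0.027). Its other probe averaged -1.53. Without 60 days replicate 1, 2 or 3, the number of interferon-stimulated genes that fell was 3, 6 and 2, and it was 9 without the 3 arrays of other days with the highest macrophage marker medians.

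Markers of white blood cells moved in the same direction, and their part in the falls above was not tested. Of 24 measured lymphocyte markers 8 fell and 0 rose, beside 7.05% of all genes falling, with a median of -1.11, and medians of -1.45, -0.90 and -0.67 on the 3 arrays. Of the 24, 4 had a mean ratio above 0. GZMB, the brightest of them all, had ratios of 0.70, 0.87 and 0.46 (adjusted p = 0.423), while its other probe averaged -0.54. The falls numbered 0 without any one of the 60-day replicates, with medians of -1.24 to -1.01, and 2 with median centring. CD3E, a chain of the T-cell receptor complex, had signals of 381, 818 and 548 at 60 days against 4680, 7250 and 3100 at 120 days (adjusted p = 0.0348). CD3G, another chain of that complex, had ratios of -3.94, -2.20 and -3.15 (adjusted p = 0.0444). CD8A, of cytotoxic T cells, had -2.17, -1.87 and -1.48 (-1.84 ± 0.48, adjusted p = 0.0464) by its brighter probe, while the other averaged -0.20. GNLY, a protein of cytotoxic granules, had 189, 304 and 349 at 60 days against 1210, 1710 and 8580 at 120 days (-3.27 ± 0.75, adjusted p = 0.0322).

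Of 12 measured neutrophil markers 5 fell and 0 rose, beside 7.05% of all genes falling, with a median of -0.60. The falls numbered 0, 3 and 0 without 60 days replicate 1, 2 or 3. S100A9, a calcium-binding protein of neutrophils and monocytes, had 204, 286 and 304 at 60 days against 2730, 1930 and 3110 at 120 days (adjusted p = 0.0179). VNN2, a vanin of leukocytes, had 365, 748 and 787 at 60 days against 30600, 30500 and 34200 at 120 days (adjusted p = 0.0108), and the 120-day level varied little. Of 16 measured macrophage and monocyte markers 0 passed in either direction, with a median of -0.40 (-0.98, -0.09 and -0.42 on the 3 arrays). PTPRC, the CD45 antigen of all leukocytes, had ratios of 0.19, -0.80 and 0.08 (adjusted p = 0.827), and CD14, of monocytes, had -0.18, -0.76 and 0.09 (adjusted p = 0.86). CD68, of macrophages, had -1.86, -0.20 and -1.41 (adjusted p = 0.501). Of 43 measured genes expressed across leukocytes 7 fell, 1 rose (IKZF1, named after its value was seen and not above background at 120 days) and 40 were below 0, with a median of -1.38. The falls numbered 0 without any one of the 60-day replicates and 3 with median centring, beside 7.05% of all genes. PTPRC was above background on 3 of 3 arrays in both channels, with signals of 2170, 476 and 3040 at 60 days and 1900, 830 and 2890 at 120 days.

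**Figure D4:**
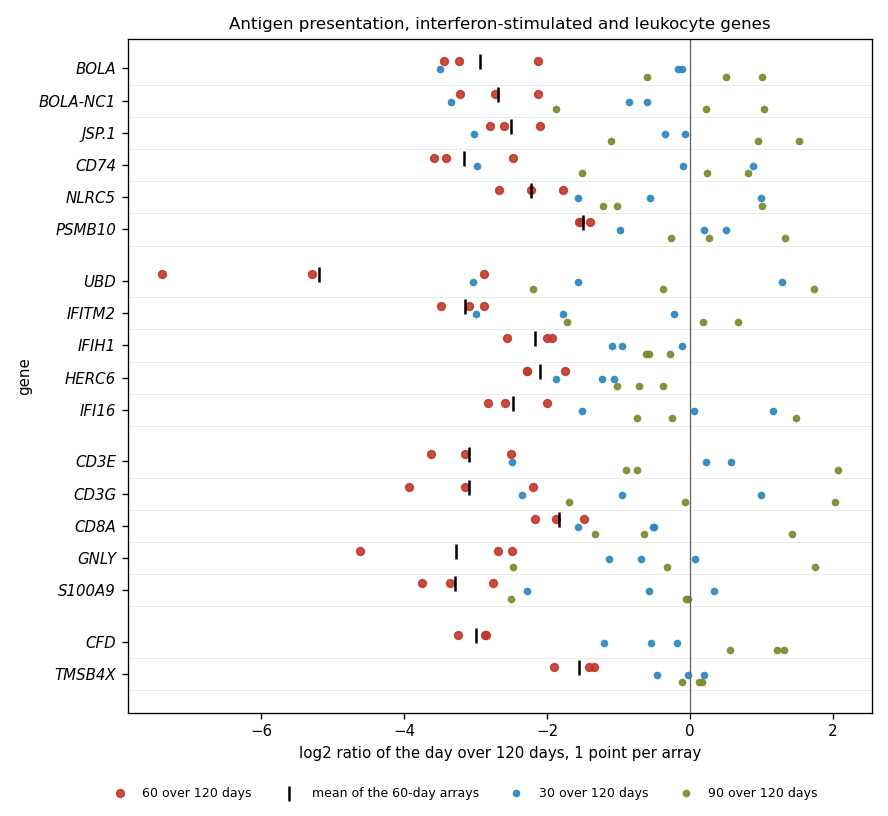
Log2 ratios over 120 days on each array (x axis) for 18 genes, from top to bottom of antigen presentation, interferon response, leukocytes and a last pair, CFD and TMSB4X, with 60-day arrays in red, 30-day arrays in blue, 90-day arrays in olive and black bars at the means of 60 days. All red points lie below 0, those of UBD between -7.40 and -2.89 and those of CFD between -3.25 and -2.86.

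Other genes, of different kinds, fell as well. S100A10, a partner of annexin at the membrane, had 831, 1740 and 1770 at 60 days against 14800, 15500 and 13200 at 120 days (ratio -3.40 ± 0.61, adjusted p = 0.0169). ANXA1, an annexin that restrains inflammation, had 687, 1800 and 1870 at 60 days against 9480, 14900 and 14600 at 120 days (-3.27 ± 0.61, adjusted p = 0.0183). CASP4, an inflammatory caspase, fell by all 3 of its probes, with a mean of -2.84 ± 0.58 (adjusted p = 0.0239). PTX3, a pentraxin that stabilises the matrix around the cumulus, had ratios of -1.60, -1.96 and -1.34 (-1.64 ± 0.22, adjusted p = 0.00984). CD55, which protects cells from complement, had -3.67, -2.11 and -2.66 (-2.81 ± 0.59, adjusted p = 0.0253), by the brightest of its 3 probes. The epithelial keratin KRT8 had 734, 2200 and 3990 at 60 days against 15300, 36700 and 32900 at 120 days (adjusted p = 0.0284). Of 16 measured epithelial markers 3 fell and 0 rose, beside 7.05% of all genes falling. Their median was -0.81 at 60 days, -0.74 at 30 and -0.72 at 90 days.

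**Figure D5:**
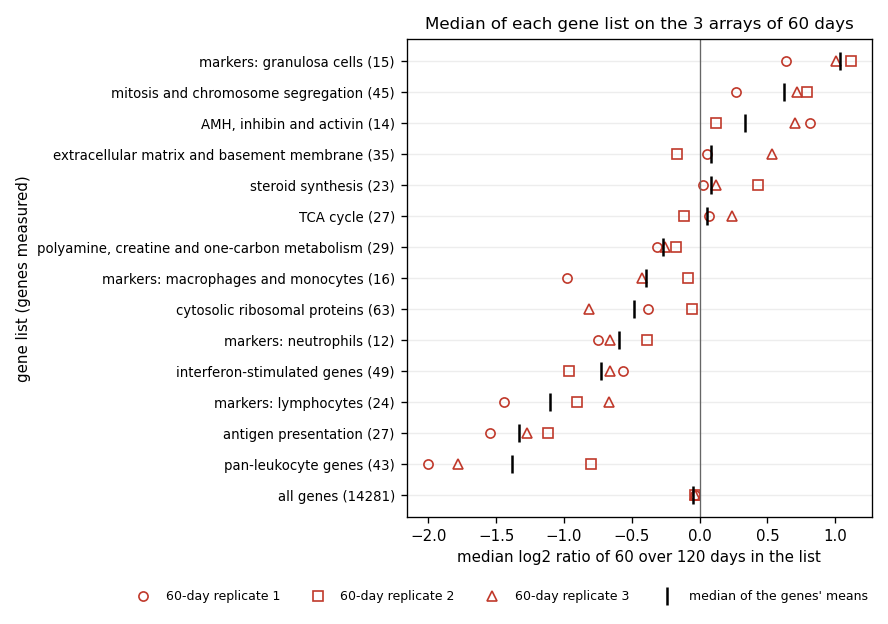
Median log2 ratio of 60 over 120 days (x axis) of 14 gene lists and of all genes, with the number measured in brackets; circles, squares and triangles are replicates 1, 2 and 3 of 60 days and black bars the medians of the genes' means. Granulosa markers lie between 0.64 and 1.11 and antigen presentation between -1.55 and -1.12, while the list of extracellular matrix has medians on both sides of 0.

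The following genes had low adjusted p-values and little spread. GNA11, the alpha subunit of a G protein that signals through phospholipase C, had 695, 564 and 567 at 60 days against 187, 187 and 165 at 120 days. Its ratios were 1.89, 1.60 and 1.78 (1.75 ± 0.09, adjusted p = 0.00386) by 1 probe, which exceeded background on 2 of 3 arrays at 120 days, and its other probe averaged 0.16. TMEM161A, a transmembrane protein, had 2.45, 1.85 and 2.16 (2.15 ± 0.12, adjusted p = 0.00484) by 1 of 3 probes, and the lowest of the others averaged -0.10. CFD, factor D of the alternative complement pathway, had 208, 855 and 484 at 60 days against 1970, 6260 and 3500 at 120 days. Its ratios of -3.25, -2.87 and -2.86 averaged -2.99 ± 0.21 (adjusted p = 0.00484), against -0.65 at 30 and 1.03 at 90 days. TMSB4X, thymosin beta 4, which sequesters actin monomers, had -1.91, -1.34 and -1.42 (-1.55 ± 0.15, adjusted p = 0.00644, both probes lower), against -0.10 at 30 and 0.06 at 90 days.

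To ask whether 60 days stood apart from its neighbours, the ratios of 60 days were set against the mean of 30 and 90 days, which removes the shared 120-day RNA and any constant dye effect from the difference. By limma 0 of 14281 genes passed, with a lowest adjusted p of 0.147, and 1848 had an unadjusted p under 0.05. CFD differed by -3.19 from the mean of the other days (adjusted p = 0.147), COX4 by -0.82 (0.147), GNA11 by 1.14 (0.147), TMSB4X by -1.54 (0.201) and AMH by 2.57 (0.257). For the first 4 of these, as for AMH, the 3 ratios of 60 days did not overlap the 6 of the other days, which held upward for 420 genes (2.94%) and downward for 649 (4.54%). With the 120-day RNA as a block, which was inferred from the Cy3 signals, 4 genes passed: UBD (-4.50 ± 0.15, adjusted p = 0.00984), TMSB4X (-1.54, adjusted p = 0.0424), VAMP5 and C16orf5. VAMP5, of vesicle fusion, and C16orf5 were named after their values were seen, at -1.26 (adjusted p = 0.0424) and 0.94 (adjusted p = 0.048).

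Other genes that passed against 120 days had similar ratios on all days. NR3C1, the glucocorticoid receptor, had ratios of 2.78, 1.48 and 2.23 at 60 days (2.17 ± 0.41, adjusted p = 0.0202), beside 2.65 at 30 and 1.64 at 90 days. SLC16A3, a lactate exporter, had 5100, 7560 and 4690 at 60 days against 840, 612 and 1120 at 120 days (adjusted p = 0.0294), and its mean ratios were 2.76 at 60, 3.08 at 30 and 2.30 at 90 days. CLDN11, a claudin of tight junctions, averaged -1.81 at 60 days (adjusted p = 0.0493), beside -1.87 at 30 and -1.77 at 90 days. JUP, plakoglobin of desmosomes and adherens junctions, averaged -0.80 at 60 days (adjusted p = 0.0486), beside -0.76 and -0.88. GATM averaged -3.95 at 60, -3.32 at 30 and -2.90 at 90 days. For these genes the difference of 60 days from the mean of the other days was between -0.84 and 0.07, and a difference between 120 days and all other days and a dye effect of the probe cannot be told apart.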

How the data were processed

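The labels' protocols describe granulosa cell RNA amplified by T7 transcription and labelled with Cy5 (60 days) or Cy3 (120 days) on 2-colour arrays. The deposited files of the authors give linear spot intensity, mean and median, and local background, not normalised. In these sources no scanner or software is named. The deposited log2 value table did not match the ratios of its own arrays (r from -0.77 to 0.378 at 60 days) and was not used.

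Mean intensities were background-corrected by normexp (offset 50) and normalised by loess in limma 3.58.1 (R 4.3.3), with control spots at weight 0. The fit gave 1 coefficient per day over 9 arrays, then eBayes, two-sided tests and Benjamini-Hochberg adjustment. Probes above the mean plus 2 SD of the negative controls on at least 3 arrays were kept, 38823 in all. A gene is its probe with the highest mean brightness, with symbols from the platform annotation. Channel signals in arbitrary units follow loess and Aquantile scaling. A spot counted as above background when it exceeded the median plus 3 MAD of the negative controls, a limit adopted after the data had been seen. Where a gene was dim on all arrays of a group, the lowest signal above background replaced the dim one if higher. For COL4A2 this left the fold unchanged, so its fold is an estimate and not a bound.

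The members, gene lists and tests were chosen with earlier results of these data known. Genes named are the largest or lowest-p changes with 1 sign on all 3 arrays, the largest and brightest of each list, and genes of granulosa function. By their Cy3 signals the arrays were cut into 3 groups, a number set beforehand, and each group held 1 array of each day. Correlations were 0.966 to 0.989 within groups and 0.879 to 0.955 between them. The groups were read as 3 different 120-day RNAs shared by all days, which the labels do not state. Mentions of the same or shared 120-day RNA rest on that reading. The alternatives tried were other background, normalisation, filter and spread settings, blocks and leaving out arrays. The number of arrays limits the precision.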

Additional observations from a re-analysis of the deposited data

Results flagged for a closer look

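The median of the 23 genes of steroid synthesis was 0.085 at 60 days, against -0.17 at 30 and -0.07 at 90 days. It was above 0 on every array of 60 days and below 0 on every array of 30 and of 90 days. The median of the 16 macrophage and monocyte markers was -0.40 at 60 days, against 1.09 at 90 days, below 0 on every array of 60 days and above 0 on every array of 90 days. These differences between days were not tested, and the days share the 120-day RNA.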

How the results depend on the processing

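The count of genes passing at 60 against 120 days, 1876, was 2583 with the 120-day RNA set as a block, 2485 with array weights and 2149 with no filter on dim probes, but 851 with no background correction, 669 with the local background subtracted, 253 with median pixel signals, 590 with the replicate block, 332 without the 3 arrays of high macrophage markers, 506 with a 2-fold minimum added and 0 with only the 60-day arrays (2 residual degrees of freedom). Leaving out 1 array gave 70 to 2175 genes. The share of called genes that were higher was 46.3%, and 34.8% with median pixel signals. Against the mean of 30 and 90 days 0 genes passed, but 4 did with the 120-day RNA set as a block and 0 to 2 on leaving out 1 array. Deviations of same-numbered replicates correlated at 0.34, 0.51 and 0.382 between 60 and 30 days and at -0.294, -0.515 and 0.187 between 60 and 90 days, so the numbers were not taken as pairs, and the replicate block kept 32 of 75 named calls. By their Cy3 signals, replicates 1 and 2 of 90 days grouped with replicates 2 and 1 of the other days.

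Antigen presentation had a median of -1.33, and of -1.11 with no background correction, -1.09 with median centring in place of loess and -1.02 with the mean of all probes of a gene. With median centring the median was 0.091 for cytosolic ribosomal proteins, -0.18 for polyamine, creatine and one-carbon metabolism, 0.25 for DNA replication and -0.047 for antioxidant and glutathione genes. With median pixel signals it was 0.018 for DNA replication, -0.45 for antioxidant and glutathione genes, -0.97 for interferon-stimulated genes and -1.74 for lymphocyte markers. Leaving out 1 array gave 0.15 to 0.77 for AMH, inhibin and activin, 0.76 to 1.16 for granulosa markers and -0.35 to -0.24 for antioxidant and glutathione genes, which had -0.24 with the mean of all probes of a gene. The causes were not tested. The alternative with the deposited value table was not run, since its columns did not match the arrays.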

Other observations

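A set of probes for unrelated genes shared 1 profile over the 9 arrays. It was noticed through GZMB, a granzyme that was the brightest lymphocyte marker, whose ratios were 0.70, 0.87 and 0.46 at 60 days, beside 1.13, 2.51 and -0.58 at 30 and 0.40, -0.63 and 1.19 at 90 days. NR5A2, an orphan receptor of granulosa cells, had 0.83, 1.11 and 0.69 at 60 days, beside 1.09, 2.53 and -0.64 at 30 and 0.24, -0.47 and 1.45 at 90 days, and its Pearson r with GZMB was 0.988. HSPG2, perlecan of basement membranes, had an r of 0.985, ADCY6, an adenylyl cyclase, 0.979, GP1BA, a platelet receptor, 0.978, CXCL2, a chemokine, 0.952, and SREBF2, a regulator of sterol synthesis, 0.951. Of 14281 genes 170 had an r of at least 0.95 with GZMB over the 9 arrays. Their median average log2 signal was 12.1, against 8.36 for all genes, and their median ratio at 60 days was 0.87. The genes share the libraries and arrays, and the correlation is a description with no test. GZMB and the 6 genes named belong to different lists of the report, and were picked after their values were seen. None of them passed at 60 days.

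The deposited value table paired poorly with the array files of the same name and was not used. For the 60-day columns the correlation with the ratio of their own array was -0.0468, 0.378 and -0.77. Some columns matched another array closely. The column of 30 days replicate 1 had an r of 0.938 with the array of 60 days replicate 1, that of 30 days replicate 3 an r of 0.941 with 60 days replicate 2, and that of 60 days replicate 2 an r of 0.902 with 90 days replicate 3. Whether columns or array files were exchanged is not known, and an exchange of array files between days would change which arrays are 60-day arrays.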
